A study of Mus musculus with 5 samples.

Results

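The ligand Gas6, its relative protein S (Pros1) and the receptor tyrosine kinases Tyro3, Axl and Mertk, together called the TAM system, were followed in mesenchymal stem cells of mice that lacked TSG-6 and of wild-type mice. These 5 genes were chosen by name after the size of the Gas6 rise in the knockout was known, to see whether the receptors moved with the ligand. All 5 were found by symbol among the 12621 genes of the deposited table. Because the knockout against wild-type values of Gas6 led to the choice, the difference between genotypes in these 5 genes is described below without a test. The table holds 3 knockout libraries, named C1, C2 and SE, and 2 wild-type libraries, named C1 and SE. Knockout cells lacked TSG-6, a secreted hyaluronan-binding protein encoded by Tnfaip6, and wild-type cells carried the gene. The strain is given as Balb/c (C.129S6) for all samples. The labels give no age, sex, passage or treatment and do not say which part of Tnfaip6 was deleted or what the suffixes C and SE mean. The submitters' design mentions 2 biological replicates of each genotype, but 3 knockout samples are listed, so the spread behind each p-value may be partly technical.

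Gas6 and protein S are secreted proteins with an amino-terminal Gla domain, in which glutamates are carboxylated with the help of vitamin K and which then binds phosphatidylserine on dying cells and on vesicles. Gas6 activates all TAM receptors and binds Axl most tightly, while protein S, better known as an anticoagulant cofactor, activates Tyro3 and Mertk. TAM receptors take part in the uptake of apoptotic cells and in the damping of innate immune signalling, and Gas6 takes its name from its expression in growth-arrested fibroblasts.

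In short, both ligand transcripts were higher in every knockout library, Gas6 by 554-fold and Pros1 by 3.97-fold on average, while no receptor transcript was higher on average. Axl made up nearly all TAM receptor transcript in both genotypes and its groups overlapped. Mertk was lower in every knockout library, and Tyro3 was lower on average with groups that met at their edges. Of the 5 genes, 2 were past the threshold of the fit over all genes upward and 1 downward (limma, adjusted p under 0.05, against 17.2% of all tested genes higher and 17.1% lower, together 34.3%). Values of the genotypes did not overlap for 3 of the 5, against 58.8% of all tested genes. Nothing is read from these counts, since the same comparison led to the choice.

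The sequences just before the transcription starts of the 2 genes that were higher and of the receptor that was lower in every knockout library are shown, since they are the stretches in which promoter elements of these genes are sought. They are RefSeq sequences of GRCm38, 250 bases ending at the base before the RefSeq start, written 5′ to 3′ on the strand of the gene. Gas6 lies on the minus strand (chr8:13494536-13494785), Pros1 on the plus strand (chr16:62854057-62854306) and Mertk on the plus strand (chr2:128698665-128698914). Capitals mark the GC box GGGCGG on either strand, a binding motif of SP1-type factors, with overlapping matches counted.
Gas6: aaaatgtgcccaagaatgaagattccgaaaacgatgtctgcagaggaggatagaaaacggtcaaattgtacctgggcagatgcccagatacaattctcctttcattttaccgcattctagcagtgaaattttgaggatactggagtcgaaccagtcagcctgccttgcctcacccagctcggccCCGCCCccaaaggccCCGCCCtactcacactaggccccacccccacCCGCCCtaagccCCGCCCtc
Pros1: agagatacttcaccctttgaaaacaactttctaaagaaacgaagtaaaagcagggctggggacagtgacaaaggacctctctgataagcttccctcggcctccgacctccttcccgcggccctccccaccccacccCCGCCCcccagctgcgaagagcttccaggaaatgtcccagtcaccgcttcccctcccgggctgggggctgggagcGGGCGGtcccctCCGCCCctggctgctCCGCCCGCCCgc
Mertk: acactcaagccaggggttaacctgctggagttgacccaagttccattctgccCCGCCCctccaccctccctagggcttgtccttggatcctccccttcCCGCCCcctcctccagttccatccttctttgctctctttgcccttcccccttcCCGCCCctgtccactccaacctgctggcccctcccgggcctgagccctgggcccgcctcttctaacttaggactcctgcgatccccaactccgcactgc

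The Gas6 stretch held 4 GC boxes, Pros1 held 5 and Mertk held 3. The corresponding stretches of Tyro3 and Axl held 3 and 1. At least 1 GC box was present in 32.7% of 32851 mouse promoter stretches of the same length, 4 or more in 4.09% and 5 or more in 1.93%. The TATA box TATAAA, the AP-1 motif TGANTCA, the CCAAT motif and the E-box CACGTG were searched on both strands and matched in none of the 5 stretches, against 12.4%, 6.75%, 33.8% and 6.02% of all promoter stretches. GC boxes were thus present before genes that were higher and before genes that were lower, and a match of letters does not show that a site is used.

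Reads assigned to genes ran from 13605555 to 26658725 per library. Tnfaip6 itself had 1.65, 2.38 and 1.36 in knockout C1, C2 and SE, against 6.04 and 3.21 in wild-type C1 and SE, and was not called (log2 fold change -1.13, standard error 0.37, adjusted p = 0.0578). Of 11 mesenchymal stem cell markers 9 were analysed. Of them 4, namely Nt5e, Cd44, Ly6a and Alcam, were lower in the knockout, or 44.4%, against 17.1% of all tested genes lower. The other 5 did not pass and went both ways. Pdgfrb and Vcam1 lay above the wild type in every knockout library (log2 fold changes 2.12 and 0.84). Those of Eng, Itgb1 and Pdgfra were 0.75, -0.0013 and -0.96. Thy1 and Lepr were not among the genes of the deposited table. Of 15 macrophage and leukocyte markers 4 were analysed. Lyz2 (34.2, 24.4 and 32.2 in the knockout, against 0.162 and 0) and Csf1r were higher in the knockout, Cd14 was lower and Cd68 was not called. Those absent from the deposited table included Ptprc, Adgre1 and Itgam. The summed level of the 4 ran from 50.1 to 59.1 in the knockout and from 66.9 to 94.4 in the wild type. The wild-type sum was mostly Cd14, at 89.2 and 63.8 in C1 and SE, so it does not follow Lyz2 and Csf1r. For 3 of 8 epithelial and mesothelial markers, all lower in the knockout, the sum ran from 2.51 to 5.88 in the knockout and from 321 to 368 in the wild type, there mostly from Msln, and for 2 of 8 endothelial markers it ran from 0.376 to 3.80 and from 1.40 to 1.70. Of these, Krt18 and Erg were at 0 in every knockout library. The other endothelial marker, Vwf, went the other way but was not called. It had 0.376, 1.13 and 3.80 in knockout C1, C2 and SE, against 0.041 and 0 in wild-type C1 and SE. The endothelial sum was thus all Vwf in the knockout and nearly all Erg in the wild type. The part of other cell types in the TAM values was not tested, and in bulk RNA fewer cells of a type and less RNA per cell cannot be told apart.

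Gas6 was among the highest transcripts of the knockout and a low transcript of the wild type. Gas6 (ENSMUSG00000031451, chromosome 8, 13465374 to 13494490, minus strand, GRCm38) had normalised counts, on the CPM scale, of 1611, 1728 and 2161 in the knockout libraries C1, C2 and SE, against 2.84 and 3.78 in the wild-type libraries C1 and SE. These values rest on 34267, 45666 and 30154 knockout reads and on 70 and 73 wild-type reads. All knockout libraries lay far above both wild-type libraries, and the spread within each genotype was small beside the gap. The mean was 1833 ± 290 in the knockout (SD, n = 3) and 3.31 ± 0.668 in the wild type (SD, n = 2), and the log2 fold change, taken after adding 0.5 to each value, was 8.91 (standard error 0.24). It ranked 2 from the top among 12484 tested genes. Divided by exon length, the Gas6 level stood at percentile 99.7 of the genes in the knockout and at percentile 24.1 in the wild type. The 50 tested genes next to Gas6 on the chromosome had a median log2 fold change of -0.22, far below the value of Gas6.

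Pros1, the gene of protein S, was also higher in the knockout, by far less. Pros1 (ENSMUSG00000022912, chromosome 16, 62854307 to 62929346, plus strand) had normalised counts of 296, 294 and 341 in knockout C1, C2 and SE, against 79.6 and 76.8 in wild-type C1 and SE. The 3 knockout libraries agreed closely, as did both wild-type libraries, and the groups lay well apart. The mean was 310 ± 26.6 in the knockout (SD, n = 3) and 78.2 ± 1.98 in the wild type (SD, n = 2), a 3.97-fold difference and a log2 fold change of 1.98 (standard error 0.20). Genes around Pros1 had a median log2 fold change of 0.77, and the value of Pros1 lay 1.21 above it. A part of the chromosomal region in the change was not tested for any of the member genes.

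**Figure D1:**
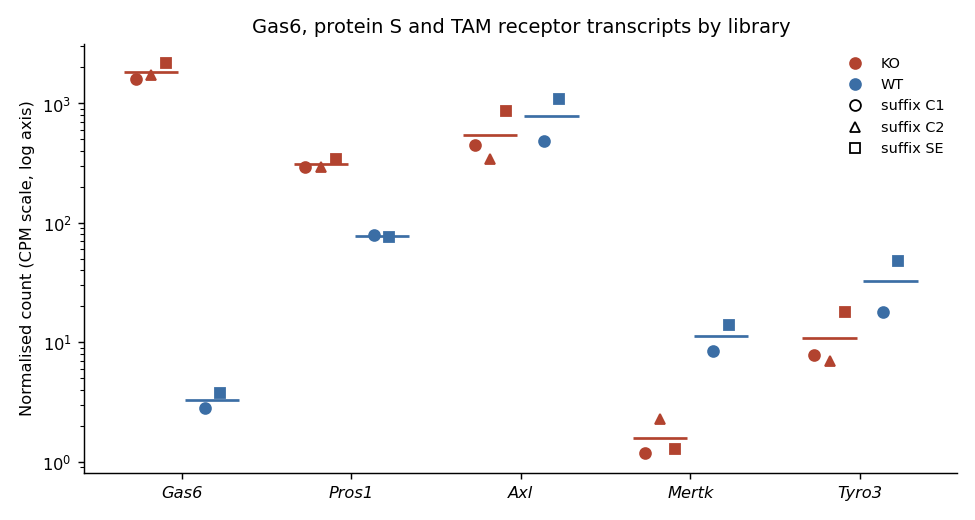
Normalised counts of Gas6, Pros1, Axl, Mertk and Tyro3 in each library on a log axis, with knockout (KO) libraries left of wild-type (WT) libraries, marker shape for the suffix and a line at each group mean. Knockout Gas6 values of 1611 to 2161 stand above wild-type values of 2.84 and 3.78, Mertk shows the opposite order, and the Axl groups overlap.

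Axl, the receptor with the highest affinity for Gas6, showed no difference between the genotypes beyond the spread between libraries. Axl (ENSMUSG00000002602, chromosome 7, 25757273 to 25788705, minus strand) had normalised counts of 448, 341 and 858 in the knockout libraries C1, C2 and SE, against 481 and 1091 in the wild-type libraries C1 and SE. The SE library was the highest of its genotype in both, and the knockout SE value lay above wild-type C1. The mean was 549 ± 273 in the knockout (SD, n = 3) and 786 ± 431 in the wild type (SD, n = 2). The log2 fold change was -0.51 (standard error 0.50), and without the wild-type library SE it was 0.079. Within the suffixes Axl was slightly lower in the knockout in each, 0.820-fold the wild-type value among the C libraries and 0.787-fold among the SE libraries.

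Mertk, the TAM receptor best known from phagocytes and the retinal pigment epithelium, was lower in the knockout. Mertk (ENSMUSG00000014361, chromosome 2, 128698956 to 128802894, plus strand) had normalised counts of 1.18, 2.27 and 1.29 in the knockout libraries C1, C2 and SE, against 8.51 and 14.1 in the wild-type libraries C1 and SE. The knockout values rest on 25, 60 and 18 reads and the wild-type values on 210 and 272 reads, so Mertk was a low transcript in both genotypes. Every knockout library lay below both wild-type libraries. The knockout mean was 1.58 ± 0.602 (SD, n = 3) and the wild-type mean 11.3 ± 3.94 (SD, n = 2), a 7.16-fold lower level with a log2 fold change of -2.50 (standard error 0.38). Among the C libraries the level was 4.94-fold lower in the knockout and among the SE libraries 10.9-fold lower.

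Tyro3, the TAM receptor most studied in the nervous system, lay between these patterns. Tyro3 (ENSMUSG00000027298, chromosome 2, 119797733 to 119818104, plus strand) had normalised counts of 7.90, 6.999 and 17.99 in the knockout libraries C1, C2 and SE, against 17.96 and 47.9 in the wild-type libraries C1 and SE. The genotypes met at knockout SE and wild-type C1. The log2 fold change was -1.51 (standard error 0.56), and leaving out single libraries it ran from -2.20 without wild-type C1 to -0.81 without wild-type SE. Within the suffixes the knockout level was 2.41-fold lower among the C libraries and 2.66-fold lower among the SE libraries, close to each other. With the suffix as a further term of the fit, the log2 fold change of Tyro3 was -1.29 with a smaller standard error of 0.19, and that of Axl was -0.32 (standard error 0.16). Mertk and Tyro3 lie on chromosome 2, as does the targeted Tnfaip6, and the 50 tested genes around each had median log2 fold changes of -0.096 for Mertk and 0.012 for Tyro3.

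Levels of different genes were compared after division by the union of exon lengths, as normalised counts per kilobase. In the knockout the order was Gas6 (719 ± 114), Axl (109 ± 54.3), Pros1 (75.9 ± 6.504), Tyro3 (1.77 ± 0.984) and Mertk (0.364 ± 0.139; SD, n = 3 each). Axl and Pros1 changed places between knockout libraries, with 67.7 for Axl and 71.9 for Pros1 in knockout C2. In the wild type the order was Axl (156 ± 85.7), Pros1 (19.1 ± 0.484), Tyro3 (5.31 ± 3.42), Mertk (2.61 ± 0.910) and Gas6 (1.30 ± 0.262; SD, n = 2 each). Tyro3 and Mertk overlapped there, with Tyro3 at 2.90 in wild-type C1 and Mertk at 3.25 in wild-type SE.

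The leading ligand transcript differed between the genotypes, while Axl led the receptors in both. Gas6 gave 90.4% ± 0.658 of the summed per-kilobase level of Gas6 and Pros1 in the knockout and 6.37% ± 1.35 in the wild type. Axl gave 98.0% ± 0.358 of the summed receptor level in the knockout and 95.2% ± 0.0137 in the wild type, with the remainder shared by Tyro3 (1.57% ± 0.141 and 3.14% ± 0.360) and Mertk (0.409% ± 0.307 and 1.69% ± 0.374). The summed receptor level was 90.5, 69.3 and 174 in knockout C1, C2 and SE, against 100.4 and 228 in wild-type C1 and SE, and the groups overlapped. Gas6 stood at 6.98, 9.78 and 4.88 times the summed receptor level in knockout C1, C2 and SE, whereas the receptors together stood at 90.1 and 153 times Gas6 in wild-type C1 and SE. The log2 ratio of Gas6 to the receptors differed between genotypes by 9.67. These are ratios of transcript levels and say nothing of protein amounts.

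**Figure D2:**
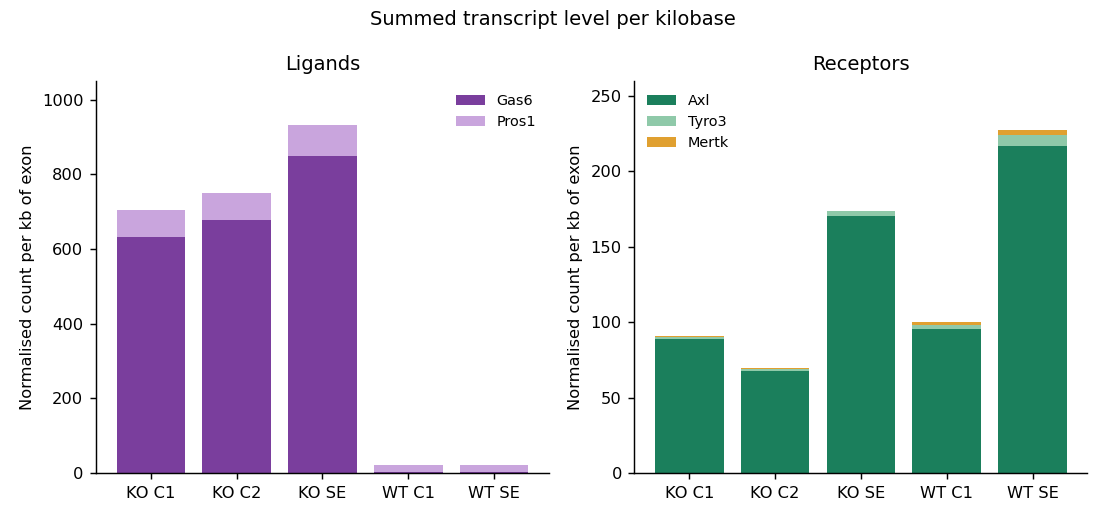
Stacked bars from 0 of normalised counts per kilobase of exon in each library, knockout libraries first, for the ligands Gas6 and Pros1 (left) and the receptors Axl, Tyro3 and Mertk (right, on its own axis). Summed ligands reach 705 to 931 in the knockout and about 20.3 to 20.6 in the wild type, while summed receptors run from 69.3 to 174 and from 100.4 to 228.

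The suffix of the library names gave a comparison that the choice of genes had not used, and Axl and Tyro3 followed it in both genotypes. SE against C libraries were tested with suffix and genotype as terms of the fit over all genes, a comparison added after the data were seen. That fit left 2 residual degrees of freedom, with a single SE library in each genotype. The SE library had the fewest reads of its genotype, 13605555 in the knockout and 17986301 in the wild type. Suffix and depth therefore cannot be told apart. Tyro3 was higher in SE libraries, 2.41-fold above the mean of the C libraries in the knockout and 2.67-fold above C1 in the wild type (log2 fold change 1.29, standard error 0.19, limma adjusted p = 0.00639). Axl was 2.18-fold higher in knockout SE and 2.27-fold higher in wild-type SE (log2 fold change 1.15, standard error 0.16, adjusted p = 0.00564). Gas6 was 1.29-fold and 1.33-fold higher in SE in the knockout and the wild type (log2 fold change 0.37, standard error 0.11, adjusted p = 0.0472). These 3 of the 5 genes were called, all higher in SE, against 17.4% of all tested genes higher in SE and 32.8% called in either direction. Pros1 and Mertk were not called, with log2 fold changes of 0.10 (standard error 0.12) and 0.15 (standard error 0.36). Without knockout SE, the log2 fold changes stayed at 1.39 for Tyro3 and 1.18 for Axl but neither was called (adjusted p = 0.325 for each), and the Gas6 call was lost without any single library other than knockout C2 (adjusted p from 0.0826 to 0.374).

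**Figure D3:**
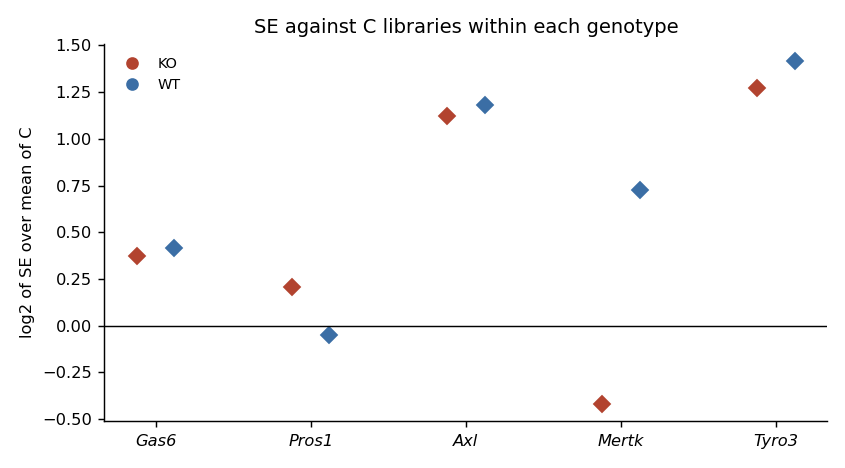
Log2 of the SE value over the mean of the C values within knockout (left point of each pair) and wild-type (right point) libraries, for each gene. Axl and Tyro3 lie above 1 in both genotypes, while the Mertk points fall on opposite sides of 0.

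Axl was the highest receptor tyrosine kinase in both genotypes. Of 51 other mouse receptor tyrosine kinases looked up, 27 were in the table, and with the TAM receptors they make 30. Per kilobase, Axl ranked 1 of 30 in the knockout and in the wild type, Tyro3 ranked 16 and 12, and Mertk ranked 26 and 17. The TAM receptors gave 36.7%, 28.5% and 28.9% of the summed level of these 30 kinases in knockout C1, C2 and SE, against 49.9% and 53.4% in wild-type C1 and SE. Every knockout share was lower than both wild-type shares, with means of 31.3% ± 4.66 in the knockout (SD, n = 3) and 51.6% ± 2.46 in the wild type (SD, n = 2). The summed level of the 30 kinases, by which these shares are divided, was itself higher in the knockout within each suffix, at 247 and 244 in knockout C1 and C2 against 201.1 in wild-type C1, and at 602 in knockout SE against 426 in wild-type SE. Of the other kinases, Pdgfrb, a receptor for platelet-derived growth factor, averaged 81.5 per kilobase in the knockout and 17.7 in the wild type. It was not called (limma adjusted p = 0.055), with normalised counts of 240, 240 and 860 in knockout C1, C2 and SE. Fgfr2 averaged 20.6 and 1.26 per kilobase. The summed TAM levels overlapped between genotypes but were lower in the knockout within each suffix. They were 90.5 and 69.3 in knockout C1 and C2 against 100.4 in wild-type C1. Among the SE libraries they were 174 in the knockout and 228 in the wild type.

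Other receptor tyrosine kinases went both ways. Of the 27, 8 rose, 3 fell and 16 did not pass the test, or 40.7% called against 34.3% of all genes, with a median log2 fold change of 0.24 against -0.089 over all genes. Ret, the receptor for GDNF-family ligands, rose to 61.8 ± 38.4 in the knockout, against 0.202 ± 0.228 in the wild type (log2 fold change 6.35, standard error 0.52, limma adjusted p = 0.000348). Fgfr2, a fibroblast growth factor receptor, rose 16.3-fold (adjusted p = 0.00105). The ephrin receptor Epha4 rose on 312 knockout reads and 2 wild-type reads, and Erbb3, of the EGF receptor family, rose on 165 and 4 reads. Epha7, another ephrin receptor, fell to 0.187 ± 0.116 in the knockout, against 24.2 ± 3.08 in the wild type (log2 fold change -5.17, standard error 0.30, adjusted p = 0.000107). The VEGF receptor Flt1 fell 28.8-fold and Epha2 fell 3.97-fold. In the order of log2 fold changes, Axl stood at 18 of 30, Tyro3 at 25 and Mertk at 28. Without knockout SE, 8 of the other kinases were lower. Epha7 and Flt1, below 1 in every knockout library, miss the filter of 1 in 2 libraries once a wild-type library is left out. They were then not tested, so fits without a wild-type library cannot show whether their fall holds. Epha2 stayed above the filter, with 5.27, 3.40 and 14.9 in knockout C1, C2 and SE. It was not called once wild-type SE was left out, a fit with a single wild-type library. On all libraries edgeR called 3 lower and DESeq2 4.

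**Figure D4:**
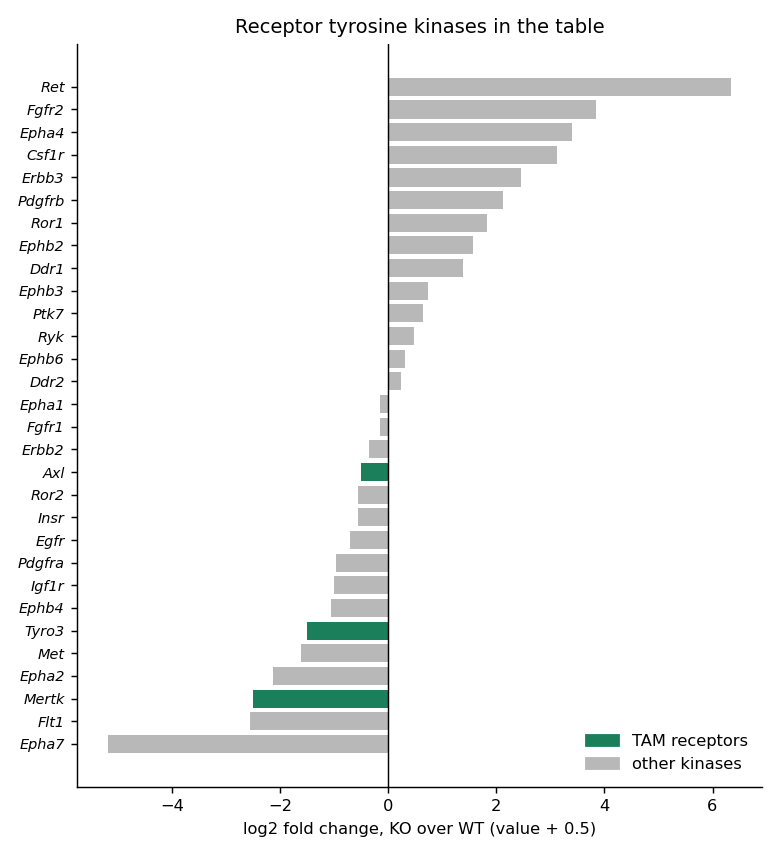
Log2 fold change of knockout over wild type for the 30 receptor tyrosine kinases in the table, ordered from highest to lowest, with the TAM receptors in green. Axl, Tyro3 and Mertk all lie below 0, between Ret at 6.35 and Epha7 at -5.17.

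The other genes of the pathway were read from lists of 112 genes, of which 89 were tested. Of these, 13 rose, 9 fell and 67 did not pass the test, or 24.7% called against 34.3% of all genes, with a median log2 fold change of -0.022. Without knockout SE, 14 were lower. Prrg4 and Vav3, below 1 in every knockout library, were not tested once a wild-type library was left out. The other genes that fell were still tested in those fits, which hold a single wild-type library, but not all of them were called. With the suffix as a block the counts were 24 higher and 22 lower.

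Of 8 genes of the vitamin K cycle and of gamma-carboxylation, 1 rose, 1 fell and 6 did not pass, or 25% called, below the 34.3% of all genes. Ggcx, the carboxylase that makes the Gla residues of Gas6 and protein S, rose to 52.2 ± 7.18 in the knockout, against 26.3 ± 0.284 in the wild type (log2 fold change 0.97, standard error 0.24, adjusted p = 0.0222). Nqo1, a quinone reductase that can reduce vitamin K, fell to 39.3 ± 15.1, against 536 ± 251 (log2 fold change -3.75, standard error 0.45, adjusted p = 0.00147). The epoxide reductase genes Vkorc1 and Vkorc1l1 were not called, with log2 fold changes of 0.34 and -0.43. Of 14 other Gla-domain proteins, 4 were tested. The transmembrane Gla protein gene Prrg4 fell 8.64-fold (adjusted p = 0.0021), and matrix Gla protein, Mgp, an inhibitor of calcification, was not called at 1105, 999 and 866 in the knockout and 1323 and 891 in the wild type. Of the other proteins proposed as TAM ligands only galectin-3, Lgals3, was tested, and it was not called (log2 fold change 0.036).

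The lists of genes that act on or below the receptors lay on both sides of the 34.3% of all genes called, with 20% of the shedding list, 10% of the signalling list and 44.4% of the interferon list. Of 5 genes of receptor shedding, 1 fell: Timp3, an inhibitor of the ADAM proteases, was 3.37-fold lower (adjusted p = 0.0125), while the sheddase genes Adam10 and Adam17, which release the ectodomains of Axl and Mertk, were not called (log2 fold changes -0.29 and -0.28). Of 20 adaptors and kinases of TAM signalling, 2 fell and 18 did not pass. Vav3, a guanine nucleotide exchange factor, fell on 2 knockout reads, both in C2, and 449 wild-type reads. Grb2, the adaptor that couples receptor tyrosine kinases to RAS, fell to 56.1 ± 3.78 in the knockout, against 94.3 ± 1.19 in the wild type (log2 fold change -0.74, standard error 0.21, adjusted p = 0.033). The list for the interferon receptor, which pairs with TAM receptors in mouse dendritic cells, and for feedback targets had 3 higher, 1 lower and 5 not called of 9. The kinase gene Jak1 rose 2.46-fold and the receptor subunit gene Ifnar2 rose 2.05-fold (adjusted p = 0.0173 and 0.03). The repressor gene Twist2 fell 3.25-fold (adjusted p = 0.0125), and the cytokine signal inhibitors Socs1 and Socs3 were not called (log2 fold changes -0.63 and -0.77).

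Receptors and bridging proteins of apoptotic cell uptake outside the TAM system went both ways. Of 15 tested, 5 rose, 2 fell and 8 did not pass, or 46.7% called against 34.3% of all genes. The scavenger receptor gene Cd36 had 8.09, 29.0 and 10.2 in the 3 knockout libraries and no wild-type read. It was at least 114-fold higher at a floor of 3 reads in each wild-type library (adjusted p = 0.00122). Integrin beta-5, Itgb5, rose 5.30-fold and integrin beta-3, Itgb3, rose 11.3-fold (adjusted p = 0.00141 and 0.00753), both of which pair with the alpha-v integrin to bind bridging proteins. Edil3, such a bridging protein that binds phosphatidylserine, fell to 0.959 ± 0.351 in the knockout, against 32.0 ± 1.64 in the wild type (log2 fold change -4.50, standard error 0.32, adjusted p = 0.000216). Mfge8, the other one, was not called (log2 fold change 0.16). Of 12 genes of the engulfment machinery, the adaptor gene Gulp1 rose 3.18-fold (adjusted p = 0.00254) and 11 did not pass. Of 9 genes that set phosphatidylserine exposure, the flippase gene Atp8b1 rose on 162 knockout reads and 3 wild-type reads, Plscr1, of the scramblase family, fell 2.60-fold (adjusted p = 0.0195), and 7 did not pass.

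**Figure D5:**
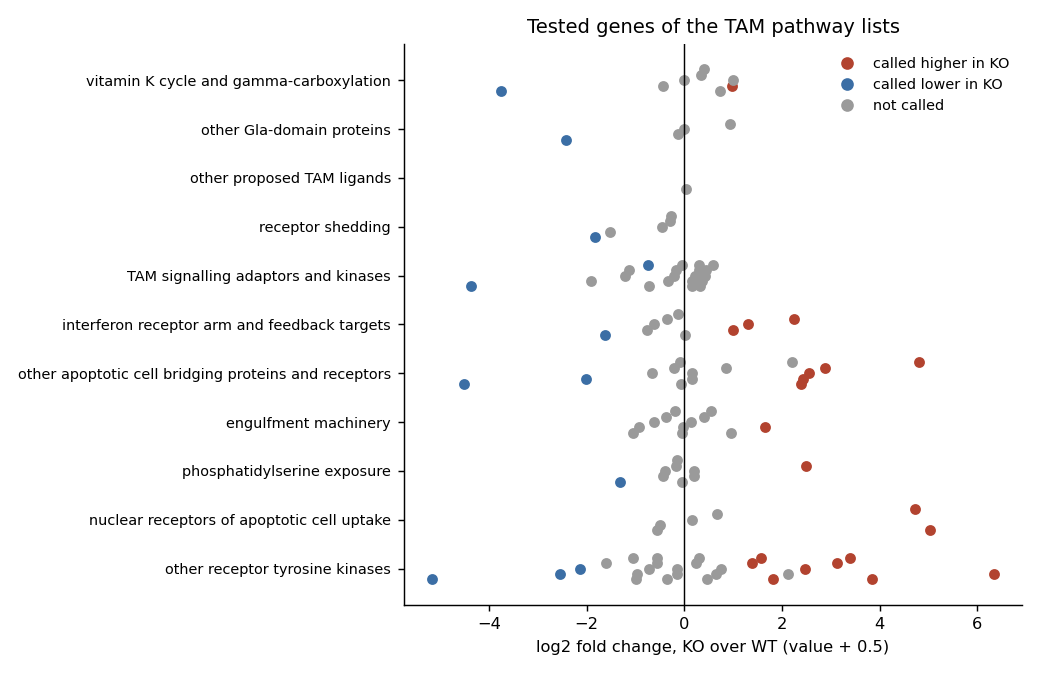
Log2 fold change of knockout over wild type for each tested gene of the pathway lists and of the other receptor tyrosine kinases, 1 row per list, in red where called higher, in blue where called lower and in grey where not called. Most of the 20 signalling adaptors and kinases lie near 0 and were not called, while Nr1h3 and Pparg stand at 4.72 and 5.02.

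Of 6 tested nuclear receptors of apoptotic cell uptake, some of which are known to raise Mertk transcription in mouse macrophages, 2 rose and 4 did not pass, or 33.3% called, close to the 34.3% of all genes. Nr1h3, the liver X receptor alpha, rose to 101, 157 and 105 in knockout C1, C2 and SE, against 4.54 and 3.57 in wild-type C1 and SE (log2 fold change 4.72, standard error 0.30, adjusted p = 0.000138). Pparg, the fat-cell regulator PPAR gamma, rose to 229, 431 and 144, against 10.8 and 4.45 (log2 fold change 5.02, standard error 0.54, adjusted p = 0.000958). Nr1h2, the liver X receptor beta, was not called (log2 fold change 0.16).

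Genes whose values ran most like those of each member over the 5 libraries were named by Pearson correlation of log2 values among 9927 genes with a mean of at least 5, as a description, since libraries of 2 genotypes and 2 kinds of suffix leave little room for patterns to differ. For Gas6 these were Bicc1, Ap1g2 and Rspo2, for Pros1 they were Aplp1, Susd2 and Hpgd, for Axl they were Orai2, Fzd2 and Rhobtb3, for Mertk they were Fjx1, Rab6b and Ldlrad3, and for Tyro3 they were Pelo, Cdr2l and Map3k3. The correlations were 0.996 or higher throughout. Orai2, a calcium channel subunit, had 20.55, 17.0 and 29.0 in knockout C1, C2 and SE and 20.95 and 33.3 in wild-type C1 and SE, the order of libraries seen for Axl. Rspo2, a secreted enhancer of Wnt signalling, had 563, 659 and 739 in the knockout and 14.3 and 15.0 in the wild type.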

How the data were processed

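Stranded mRNA libraries were read from a single end, per the labels' protocols. The submitters' processing notes name STAR 2.5, featureCounts 1.5.2 and edgeR without roles. The build and the use of strand in counting are not given in the sources used here, so reads of overlapping or antisense genes cannot be assigned with certainty. The deposited values are a signal on the CPM scale, that is read counts divided by library sizes by the authors, and 100% of them turned back into whole reads (tolerance 0.02 read), on which edgeR called 2040 genes higher and 2039 lower. TMM library sizes computed from these reads were proportional to those of the table. The lowest maximum of a gene was 0.984. The columns are named by genotype and suffix, without replicate numbers.

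Genes were tested with limma 3.58.1 (eBayes, trend) after adding 0.5 and taking log2, over genes with at least 1 in at least 2 libraries, with genotype as the only term, 3 residual degrees of freedom and Benjamini-Hochberg adjustment over 12484 genes at 0.05. A fold is the mean of one group over that of the other. Counting errors limit low genes, and the floor of 3 reads covers counting error only. Standard errors are those of the fit, and SDs are between libraries. Ensembl identifiers of 12607 genes matched GENCODE M21 (GRCm38), which gave positions and exon lengths. Alternatives were other scalings, pseudocounts of 0.1 and 1, no filter or a filter at 5, other eBayes settings, each library left out, both SE libraries left out, a suffix block, and edgeR 4.0.16 and DESeq2 1.42.0 on recovered reads. The fits were also run on simulated counts with the same relative spread for every gene and no difference between suffixes, a simpler setting than these data. In each pathway list up to 4 called genes with the smallest p-value were named, of the kinases 4 in each direction, and for each member the 3 genes most like it, without predicted genes. Other genes were named after their values were seen. A gene that this rule names is not reported here. Members and lists were chosen with earlier results of these data known. Calculations used R 4.3.3 and Python 3.11.15.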

Additional observations from a re-analysis of the deposited data

Results flagged for a closer look

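Pros1 had a ratio of SE to C above 1 in the knockout and just below 1 in the wild type. Its SE value was 1.16-fold the mean of the C libraries in the knockout and 0.965-fold the C1 value in the wild type, and every knockout C library lay below knockout SE. The wild-type step was small and rests on 1482 reads in SE and 1963 in C1. The difference was not tested, and the wild type has only 1 library of each kind. Mertk had a wider split, at 0.749-fold in the knockout and 1.66-fold in the wild type, but its knockout SE value of 1.29 lay between the C values of 1.18 and 2.27, so the knockout libraries did not all move one way.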

How the results depend on the processing

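No paired analysis was possible because the column names carry no replicate number of the sample titles. The suffix, of which C and SE occur in both genotypes, was used as a block in its place. The log2 fold changes of Gas6, Pros1, Mertk and Tyro3 kept their direction in all 18 alternatives. Leaving out single libraries, they ran from 8.73 to 9.09 for Gas6, from 1.91 to 2.02 for Pros1, from -2.85 to -2.15 for Mertk and from -2.20 to -0.81 for Tyro3. Axl ran from -1.10 to 0.079, its sign turning without wild-type SE. Gas6 reached 9.18 with DESeq2, and Mertk was at -2.06 without both SE libraries. The log2 difference of Gas6 over the receptors ran from 9.29 to 10.06 over the 7 alternatives run for it. These were each library left out, the length of the longest transcript and no division by length.

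With the suffix block, 3530 genes were higher and 4038 lower over the table, 24 and 22 in the pathway lists, and 7 of the other receptor tyrosine kinases were lower. Without both SE libraries 6 of these kinases were lower, and with a filter at 5, which tests fewer genes, 4 were higher. Leaving out single libraries, counts over the table ran from 1049 to 2332 higher and from 594 to 2632 lower, in the pathway lists from 7 to 15 and from 2 to 14, and among the kinases from 5 to 8 and from 0 to 8. Without a wild-type library, genes at 1 or more in the wild type alone no longer reach the filter in 2 libraries. Epha7, Flt1, Prrg4 and Vav3 are among them. The cause of the other shifts was not tested. For SE against C, Pros1 ran from -0.051 without knockout SE to 0.21, and Mertk from -0.27 without either wild-type library to 0.70. Mertk rests on 18 to 60 knockout reads per library, which limits the precision of its fold.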
